A study of Homo sapiens with 9 samples.

Results

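The genes described here are 60 genes of mitosis, the kinetochore and the spindle, chosen by name for their known role in cell division and found by gene symbol among 58735 genes of the count table. All 60 are protein-coding, and all 60 had enough counts to be tested in each comparison. RNA was sequenced from MIA PaCa-2 cells, an established human pancreatic cancer cell line, in 9 libraries. For 24-h the cells received either SCH772984 at 1 μM, which inhibits the kinases ERK1 and ERK2, compound 1 at 1 μM, which inhibits the kinases TBK1 and IKKε, or DMSO at 0.1% as the vehicle, in 3 libraries per condition. All cells are of the same line, labelled wild type, so each comparison is between treatments of 1 cell line. The labels do not say whether the 3 libraries of a condition came from separate cultures, so p-values measure the spread between these libraries, which may be technical.

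Mitosis is driven by CDK1 bound to cyclins and by the kinases PLK1, AURKA and AURKB, which condense the chromosomes and build the spindle. Microtubules attach to each chromosome at its kinetochore, a protein assembly on centromeric chromatin, and the spindle checkpoint holds back the anaphase-promoting complex until every kinetochore is attached. The anaphase-promoting complex then marks securin and the B-type cyclins for degradation, the sister chromatids part and the cell divides. Many of these genes are transcribed in G2 and mitosis and are held low in resting cells, through promoter elements that include the cell cycle genes homology region (CHR) and CCAAT boxes, with MYBL2 and FOXM1 among the factors that activate them.

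Promoter sequences from RefSeq (GRCh38.p14, from 250 bases before to 50 bases after the start site) were found for 51 of the 60 genes, in 59 windows. A CHR-type element, searched as TTTGAA or TTCGAA on both strands, lay in 43 of 59 windows (72.9%), beside 16.4% of all 35116 promoter windows. A CCAAT box, searched as CCAAT on both strands, also lay in 43 of 59 windows (72.9%), beside 34.6% of all windows. Both elements were present in 55.9% of the windows of the mitotic genes and in 6.38% of all windows. The median position was 27 bases before the start site for the CHR matches and 83 bases before it for the CCAAT matches. The windows of 4 genes are printed 5′ to 3′ on the gene's strand with the matches in capitals (TTTGAA or TTCAAA for the CHR-type element, CCAAT or ATTGG for the CCAAT box). PLK1 (chr16:23678639-23678938, plus strand) and CDC20 (chr1:43358731-43359030, plus strand) had the lowest log2 fold changes with SCH772984, and KIF14 (chr1:200620702-200621001, minus strand) and ASPM (chr1:197146620-197146919, minus strand) the 2 highest.
PLK1: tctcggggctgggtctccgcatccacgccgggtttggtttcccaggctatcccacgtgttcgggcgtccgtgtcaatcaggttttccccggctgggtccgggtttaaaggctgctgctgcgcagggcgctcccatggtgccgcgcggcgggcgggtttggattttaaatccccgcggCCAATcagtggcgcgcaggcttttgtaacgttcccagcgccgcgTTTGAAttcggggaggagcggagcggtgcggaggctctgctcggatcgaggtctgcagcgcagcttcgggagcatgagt
CDC20: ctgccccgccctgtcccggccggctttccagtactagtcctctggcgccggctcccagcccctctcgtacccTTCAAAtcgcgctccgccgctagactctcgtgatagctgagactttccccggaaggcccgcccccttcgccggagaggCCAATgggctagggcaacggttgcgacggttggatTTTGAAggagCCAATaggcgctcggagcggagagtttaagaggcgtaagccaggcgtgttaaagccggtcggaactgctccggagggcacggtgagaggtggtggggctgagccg
KIF14: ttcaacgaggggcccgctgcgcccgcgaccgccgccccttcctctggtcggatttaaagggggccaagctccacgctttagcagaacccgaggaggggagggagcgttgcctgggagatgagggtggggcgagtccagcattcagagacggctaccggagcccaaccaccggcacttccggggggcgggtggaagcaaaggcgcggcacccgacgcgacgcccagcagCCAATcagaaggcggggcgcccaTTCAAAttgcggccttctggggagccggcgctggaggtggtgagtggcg
ASPM: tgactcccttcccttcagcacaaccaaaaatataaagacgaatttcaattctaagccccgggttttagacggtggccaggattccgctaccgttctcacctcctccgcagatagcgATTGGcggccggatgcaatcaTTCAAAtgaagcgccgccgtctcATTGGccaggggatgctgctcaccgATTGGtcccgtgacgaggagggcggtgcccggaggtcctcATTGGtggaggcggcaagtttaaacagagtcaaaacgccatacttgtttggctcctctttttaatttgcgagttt
All 4 windows hold at least 1 match to each element. The genes at both ends of the range of changes thus had the same 2 kinds of match. Over the mitotic genes, the median log2 fold change with SCH772984 was −1.62 for the 39 genes with a CHR match and −1.69 for the 12 without one, and −1.67 for the 39 genes with a CCAAT match and −1.55 for the 12 without one. A match is a description of the sequence and not evidence of a bound factor.

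SCH772984 lowered nearly all of these genes. Against DMSO, 59 of 60 fell at an adjusted p under 0.05 and 1, ASPM, was higher, in a comparison in which 35.5% of all 13834 genes tested were called lower and 37.2% higher. The median log2 fold change of the mitotic genes was −1.66, a median level of 0.317 times that with DMSO, beside 0.03 for all genes tested. A fall of at least 2-fold was called for 56 of 60 genes, beside 10.6% of all genes. All 59 genes that fell were lower in every SCH772984 library than in any DMSO library (36.3% of all genes were), and ASPM was higher in every one (38% of all genes were). More than 4-fold falls were measured for 10 genes and falls between 2-fold and 4-fold for 46, while SMC2 (log2 fold change −0.99), KIF18A (−0.68) and KIF14 (−0.40) fell by less than 2-fold. The standard errors of these log2 fold changes lay between 0.06 and 0.37, and the largest adjusted p among the 59 genes was 0.00142, for PRC1. For 13 genes, an overlapping gene of the annotation had more than 10% as many counts (CCNA2, CENPA, CENPN, FOXM1, KIF4A, KIF15, KIF18A, KIF20A, NCAPD2, NCAPG, NUF2, PRC1 and SPC24), whose values are less certain.

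The genes together took 1.36% ± 0.02 (SD, n = 3) of all counts with DMSO, 1.36% ± 0.10 with compound 1 and 0.50% ± 0.02 with SCH772984. In CPM (read counts scaled to a common library size, after TMM scaling), their summed level was 14076 to 14293 with DMSO, 13016 to 14398 with compound 1 and 4512 to 4876 with SCH772984. The SCH772984 libraries do not overlap the other 6. In bulk RNA, fewer cells in mitosis and less of these RNAs per cell cannot be told apart. Library totals were 9464432 to 10286223 counts with DMSO, 9652741 to 9840769 with compound 1 and 11056977 to 13887859 with SCH772984. Mitochondrially encoded genes took 6.23% to 7.52% of the counts with SCH772984 and 3.33% to 3.98% with DMSO, and the summed level of 4 epithelial keratins was 1129 to 1277 CPM with SCH772984, 3463 to 3727 CPM with DMSO and 2967 to 3735 CPM with compound 1. Of these keratins KRT8 (log2 fold change −1.69) and KRT18 (−2.40) were lower with SCH772984, KRT19 was not called (0.11, adjusted p = 0.149), and KRT7 was too low to be tested. The 5 immune markers summed to at most 1.46 CPM and the 4 endothelial markers to at most 6.77 CPM in any library. With DMSO and compound 1, nearly all of the endothelial sum was CDH5, at means of 3.84 and 6.45 CPM. With SCH772984 CDH5 was at 0.117 CPM and was called lower than with DMSO (log2 fold change −4.79, adjusted p = 1.77e-11). Of the 5 fibroblast markers, DCN and LUM were at 0 in all DMSO and compound 1 libraries, and nearly all of the list's summed level was COL1A2, at 481 ± 24 CPM (SD, n = 3) with DMSO, 499 ± 32 CPM with compound 1 and 1037 ± 67 CPM with SCH772984. COL1A1 and PDGFRB were at means of 0.246 and 0.0728 CPM with DMSO, 0.281 and 0.279 CPM with compound 1, and 2.66 and 6.28 CPM with SCH772984. The part of these shifts in the changes of the mitotic genes was not tested.

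**Figure D1:**
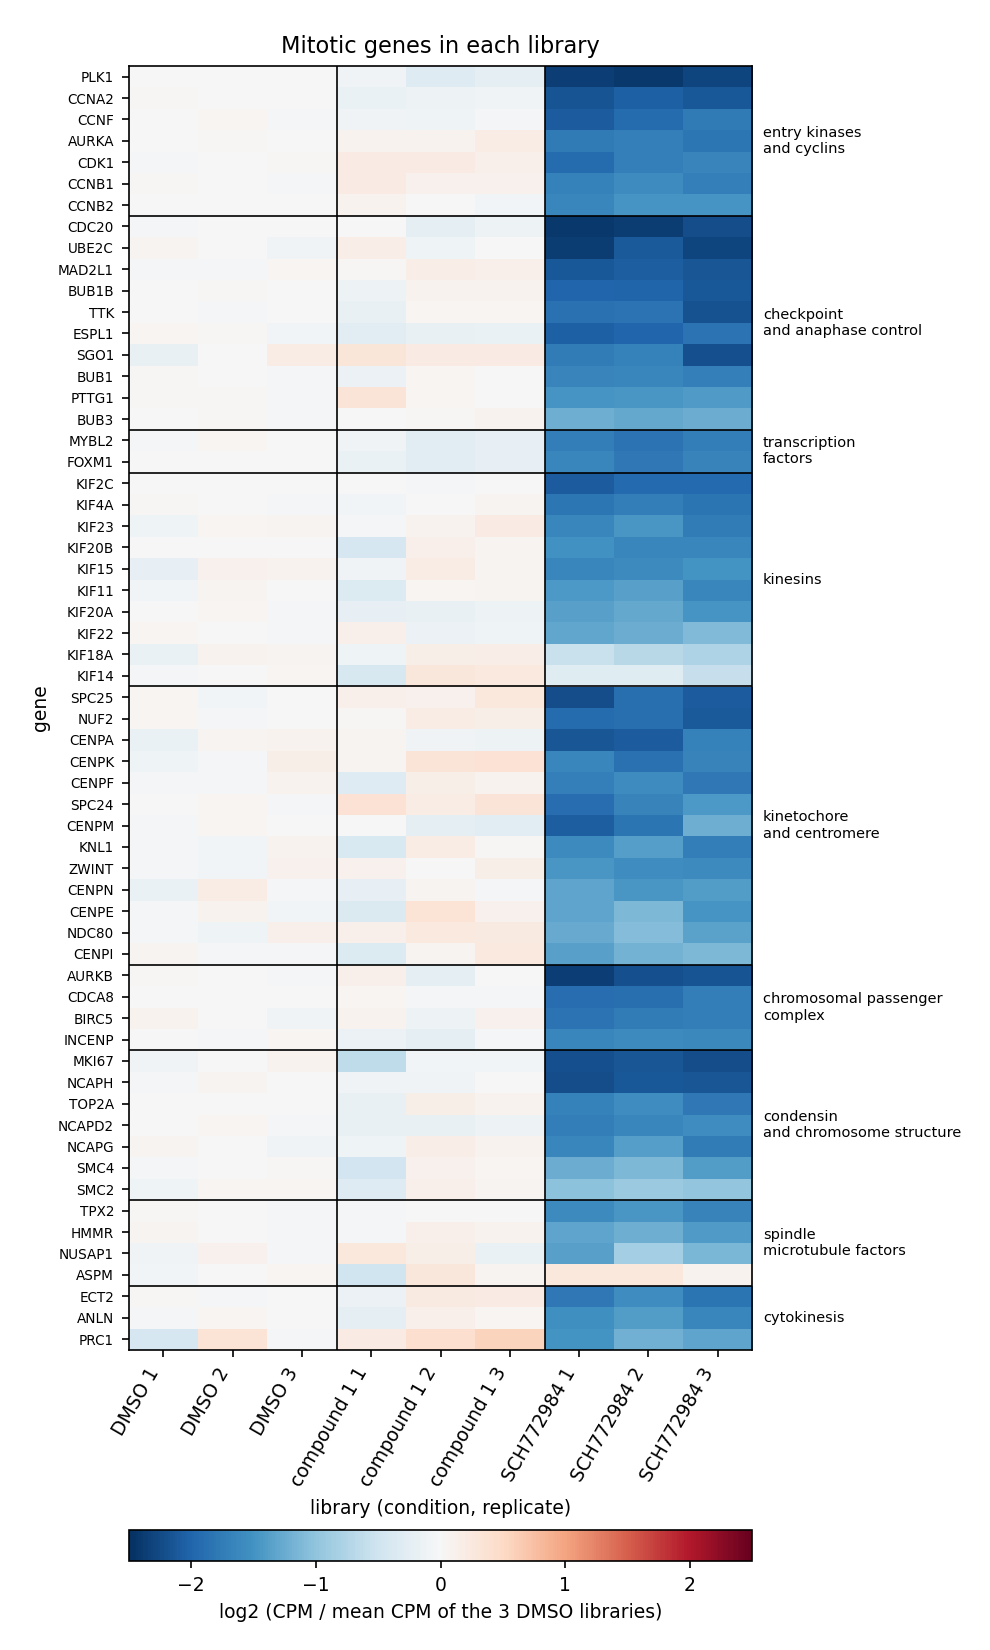
Level of each of the 60 mitotic genes (rows, grouped by role) in each of the 9 libraries (columns), as the log2 ratio of its CPM to the mean of the 3 DMSO libraries; blue is lower and red higher. The 3 SCH772984 columns are blue in 59 rows and pale red in the row of ASPM, and the first compound 1 column differs from the other two in several rows.

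In the group of kinases and cyclins, 7 of 7 genes fell with SCH772984, with a median log2 fold change of −1.77. CCNB1, which encodes cyclin B1 and had the highest level per kilobase of this group, was at 690, 677 and 654 CPM with DMSO, at 778, 726 and 723 CPM with compound 1 and at 208, 227 and 205 CPM with SCH772984. Its log2 fold change with SCH772984 was −1.67 (SE 0.06, adjusted p = 4.48e-27). PLK1, a kinase needed for spindle formation and mitotic exit, was at 280, 280 and 279 CPM with DMSO and at 54.4, 52.7 and 57.2 CPM with SCH772984. It fell 5.12-fold (log2 fold change −2.36, SE 0.07, adjusted p = 4.43e-31), the largest fall of the 60. CCNB2, the other B-type cyclin, had the smallest change of the group and went from 141, 140 and 141 CPM to 45.5, 51.0 and 50.9 CPM (log2 fold change −1.52, SE 0.07). CDK1, the kinase that both cyclins activate, had a log2 fold change of −1.76, so that the 3 subunits spanned 0.23 on the log2 scale. CCNA2 (−2.11), CCNF (−1.91) and AURKA (−1.77) lay between PLK1 and CCNB1. The reads of CCNA2 may be shared with EXOSC9 on the opposite strand, whose counts came to 0.234 times those of CCNA2.

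The 10 genes of the spindle checkpoint and of anaphase control all fell, with the lowest median of the groups (−1.96). CDC20, the activator of the anaphase-promoting complex that the checkpoint restrains, had the highest level per kilobase of all 60 genes with DMSO. It was at 726, 745 and 741 CPM with DMSO, at 738, 619 and 678 CPM with compound 1 and at 139, 143 and 159 CPM with SCH772984, a 5.04-fold fall (log2 fold change −2.33, SE 0.06, adjusted p = 7.43e-32). BUB3, a checkpoint protein, changed least of the group and was at 223, 228 and 217 CPM with DMSO and at 95.5, 91.7 and 94.3 CPM with SCH772984 (log2 fold change −1.25, SE 0.06, adjusted p = 9.42e-22). Even there, the SCH772984 libraries lay below all DMSO libraries. The other checkpoint genes, MAD2L1 (−2.11), BUB1B (−2.04), TTK (−1.96) and BUB1 (−1.67), fell further than BUB3. UBE2C, the ubiquitin-conjugating enzyme that works with the anaphase-promoting complex, had a log2 fold change of −2.26. Separase (ESPL1), which cuts cohesin, fell by 1.95 and securin (PTTG1), which inhibits separase, by 1.45 on the log2 scale. SGO1, which protects centromeric cohesin, was the least abundant gene of the group at 9.72, 11 and 12.6 CPM with DMSO and had a log2 fold change of −1.87 with a wider error (SE 0.20).

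Both transcription factors fell. MYBL2 was at 412, 443 and 429 CPM with DMSO, at 403, 352 and 372 CPM with compound 1 and at 130, 119 and 130 CPM with SCH772984 (log2 fold change −1.77, SE 0.06, adjusted p = 1.36e-27). FOXM1 was at 230, 229 and 226 CPM with DMSO, at 203, 189 and 199 CPM with compound 1 and at 73.4, 66.1 and 71.4 CPM with SCH772984 (log2 fold change −1.71, SE 0.07, adjusted p = 4.09e-26). For both genes all 3 compound 1 libraries were below all 3 DMSO libraries, as for 10.6% of all genes, but neither was called with compound 1 (adjusted p = 0.187 for MYBL2 and 0.13 for FOXM1). Both were called lower without compound 1 replicate 1 (adjusted p = 0.00188 for MYBL2 and 0.00465 for FOXM1). The same held when each library's mean level and its trend with gene length were taken out together (0.0377 and 0.0364). FOXM1 overlaps RHNO1 on the opposite strand, whose counts came to 0.366 times those of FOXM1.

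**Figure D2:**
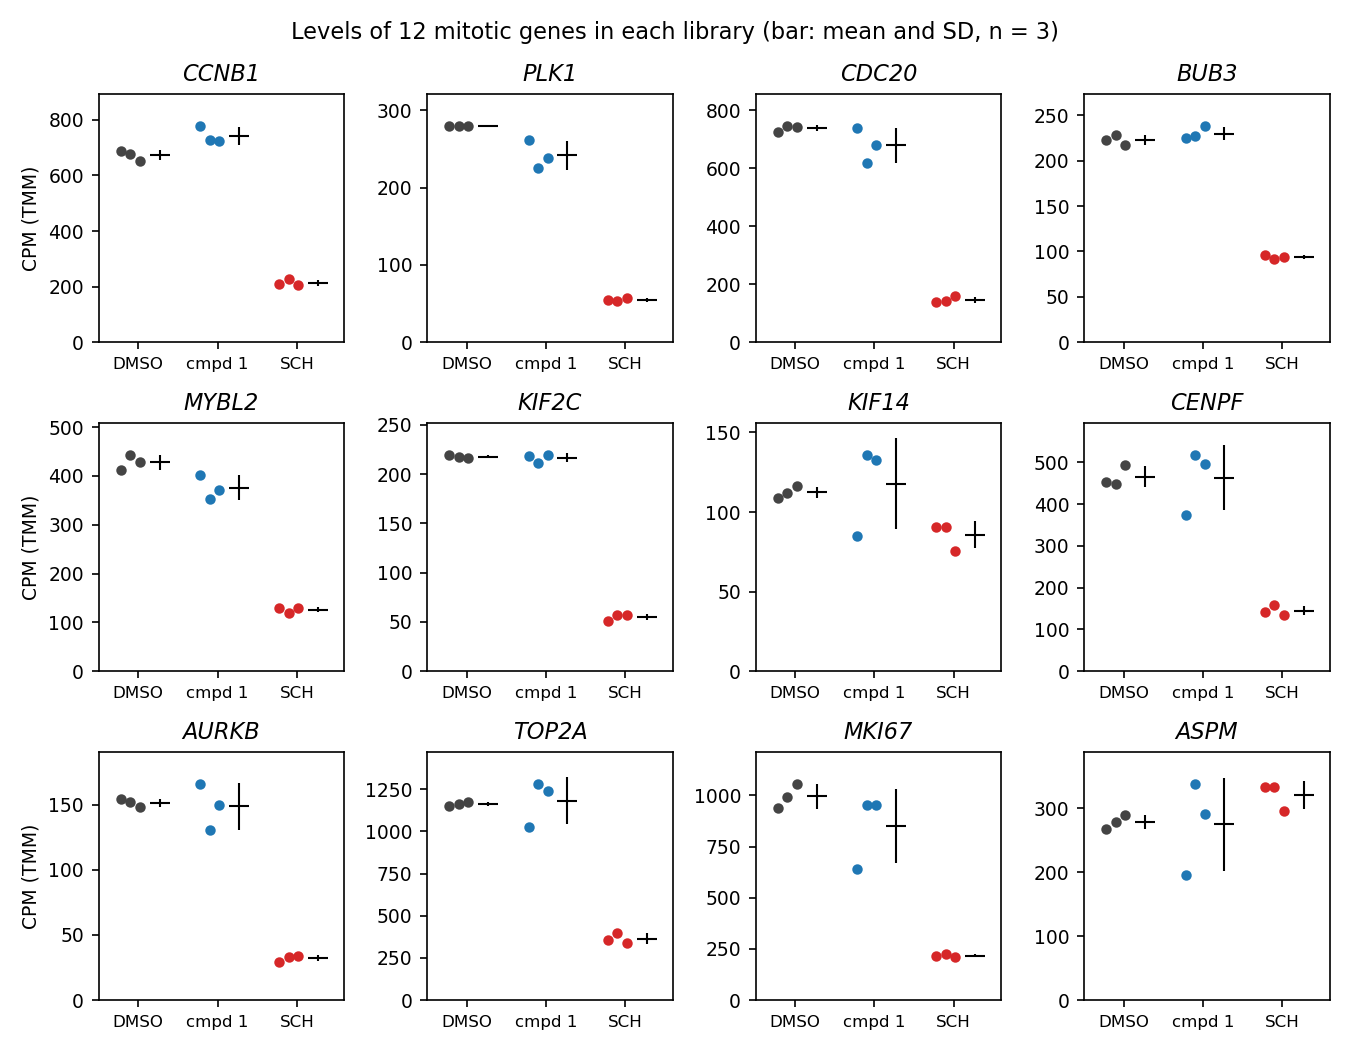
Level in CPM after TMM scaling (linear axes from 0) of 12 of the mitotic genes in each library, with DMSO in grey, compound 1 (cmpd 1) in blue and SCH772984 (SCH) in red; the crosses are the mean and the SD of 3 libraries. In 10 panels the red points lie far below the others, in the KIF14 panel the lowest blue point lies among them, and in the ASPM panel they lie above the grey points.

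The 10 mitotic kinesins, motor proteins that move or depolymerise microtubules, all fell, and they had the widest range of any group but that of ASPM. KIF20A, a kinesin of the central spindle, had the highest level per kilobase, at 290, 300 and 282 CPM with DMSO and 113, 119 and 104 CPM with SCH772984 (log2 fold change −1.38, SE 0.07). It overlaps BRD8 and CDC23 on the opposite strand, with counts at 0.701 and 0.381 times those of KIF20A. KIF2C, which depolymerises microtubules at kinetochores, fell most, from 219, 217 and 217 CPM to 51.3, 56.9 and 56.7 CPM (log2 fold change −1.99, SE 0.07, adjusted p = 4.78e-28). KIF14, a kinesin of the midbody that acts in cytokinesis, fell least, from 109, 112 and 116 CPM to 90.4, 90.9 and 75.8 CPM (log2 fold change −0.40, SE 0.07, adjusted p = 5.68e-06). KIF14 lies on chromosome 1 from 200551497 to 200620734 (GRCh38, minus strand). Its SCH772984 libraries lay below all DMSO libraries, but the lowest compound 1 library was at 84.8 CPM, inside the range of the SCH772984 libraries. KIF18A, which limits chromosome oscillation, was the other kinesin under a 2-fold fall (−0.68, SE 0.09), and the remaining 7, among them KIF4A (−1.79), KIF23 (−1.62) and the spindle bipolarity motor KIF11 (−1.48), had log2 fold changes from −1.79 to −1.22. METTL15 overlaps KIF18A on the opposite strand with 0.533 times its counts.

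All 13 kinetochore and centromere genes fell by at least 2-fold, with a median log2 fold change of −1.64. CENPF, a large protein of the outer kinetochore, was the most abundant per kilobase, at 454, 448 and 494 CPM with DMSO, at 375, 518 and 497 CPM with compound 1 and at 142, 157 and 135 CPM with SCH772984 (log2 fold change −1.69, SE 0.07). SPC25 had the largest fall of the group, from 48.9, 45.2 and 47.6 CPM to 10.2, 12.7 and 11.2 CPM (log2 fold change −2.06, SE 0.11, adjusted p = 1.69e-21). CENPI, a subunit of the constitutive centromere network, had the smallest, from 51.0, 48.0 and 47.6 CPM to 19.0, 21.6 and 22.4 CPM (log2 fold change −1.22, SE 0.10, adjusted p = 1.53e-15). Within the NDC80 complex, the microtubule-binding unit of the kinetochore, SPC25 (−2.06), NUF2 (−1.98), SPC24 (−1.65) and NDC80 (−1.23) spanned 0.83 on the log2 scale. The histone H3 variant of centromeres, CENPA, had a log2 fold change of −1.95. An overlapping neighbour had more counts than the gene itself for NUF2, where RGS5 had 4.01 times its counts, and for CENPA, where SLC35F6 had 2.47 times its counts.

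The 4 subunits of the chromosomal passenger complex, which corrects wrong attachments and then directs cytokinesis, fell together with a median of −1.81. CDCA8 (borealin) had the highest level per kilobase, at 175, 178 and 177 CPM with DMSO and 46.9, 47.5 and 53.4 CPM with SCH772984. AURKB, the kinase subunit, fell most, from 154, 152 and 148 CPM to 29.5, 33.1 and 33.7 CPM (log2 fold change −2.24, SE 0.08, adjusted p = 1.97e-28). INCENP, the scaffold, fell least, from 121, 115 and 123 CPM to 38.8, 39.8 and 39.1 CPM (log2 fold change −1.61, SE 0.07, adjusted p = 1.8e-23). For each of these genes the SCH772984 libraries lay far below the DMSO libraries, and BIRC5 (survivin) lay between CDCA8 and INCENP at −1.78. The compound 1 libraries were further apart, at 166, 130.2 and 149.9 CPM for AURKB.

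Condensin and the other chromosome structure genes fell in 7 of 7 cases. TOP2A, the topoisomerase that untangles sister chromatids, was the most abundant per kilobase, at 1153, 1162 and 1174 CPM with DMSO, 1024, 1281 and 1239 CPM with compound 1 and 359, 398 and 336 CPM with SCH772984 (log2 fold change −1.68, SE 0.06). MKI67, the Ki-67 proliferation antigen that coats mitotic chromosomes, fell most, from 938, 990.1 and 1056 CPM to 216, 225 and 213 CPM (log2 fold change −2.20, SE 0.06, adjusted p = 3.73e-31). With compound 1 MKI67 was at 641, 954 and 955 CPM, so that 1 library was far below the other two. SMC2, a condensin subunit, fell least, from 88.1, 97.1 and 98.2 CPM to 46.3, 49.4 and 47.5 CPM (log2 fold change −0.99, SE 0.08, adjusted p = 9.64e-16). The 5 subunits of condensin I did not fall alike and spanned 1.17 on the log2 scale, from NCAPH (−2.16) over NCAPD2 (−1.64), NCAPG (−1.58) and SMC4 (−1.26) to SMC2. The 2 subunits with the smallest changes are the ATPase subunits that condensin I shares with condensin II.

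Of 4 spindle microtubule factors, 3 fell. TPX2, which activates AURKA on the spindle, was at 582, 566 and 552 CPM with DMSO and 187, 207 and 178 CPM with SCH772984 (log2 fold change −1.58, SE 0.06, adjusted p = 7.21e-26), and HMMR (−1.32) and NUSAP1 (−1.11, SE 0.14) also fell. NUSAP1 had 181 to 197 counts per DMSO library. A protein-coding gene on the same strand, AC087721.2, overlaps it and had 0 counts with DMSO, so the level of NUSAP1 is less certain. ASPM, a protein of the spindle poles, was at 267, 278 and 289 CPM with DMSO, at 196, 338 and 291 CPM with compound 1 and at 332, 334 and 295 CPM with SCH772984. The SCH772984 libraries lay above all DMSO libraries, with a log2 fold change of 0.20 (SE 0.06, adjusted p = 0.00461). The counts behind these levels were 2527 to 2648 per library with DMSO and 3961 to 4404 with SCH772984. ASPM lies on chromosome 1 from 197084128 to 197146694 (GRCh38, minus strand), and the 1 gene that overlaps it, a pseudogene, had at most 5 counts. The rise of ASPM was small beside the falls of the other genes, and it was not called in the fit of all 9 libraries (log2 fold change 0.20, adjusted p = 0.259), without DMSO replicate 1 (0.15, adjusted p = 0.0756) or once a smooth trend in length was taken out of every library (0.11, adjusted p = 0.0793). It turned to −0.21 (adjusted p = 0.00433) when the mean level of each library over all genes was taken out together with that trend. None of these values comes near the median fall of the 60 genes.

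The 3 cytokinesis genes fell. ANLN, the actin-binding protein anillin of the contractile ring, was at 715, 761 and 740 CPM with DMSO and 255, 283 and 237 CPM with SCH772984 (log2 fold change −1.52, SE 0.06). ECT2, which activates RhoA at the cell equator, fell most, from 401, 388 and 395 CPM to 114, 135 and 111 CPM (log2 fold change −1.73, SE 0.07, adjusted p = 3.7e-26). PRC1, a microtubule bundler of the central spindle, was listed at only 1.74, 2.98 and 2.29 CPM with DMSO and at 0.83, 1.01 and 0.938 CPM with SCH772984 (log2 fold change −1.32, SE 0.37). Those levels rest on 17 to 27 counts per DMSO library. A second gene on the same strand, AC068831.7, overlaps PRC1 and had 101 to 108 counts in the same libraries, so the value of PRC1 is uncertain.

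**Figure D3:**
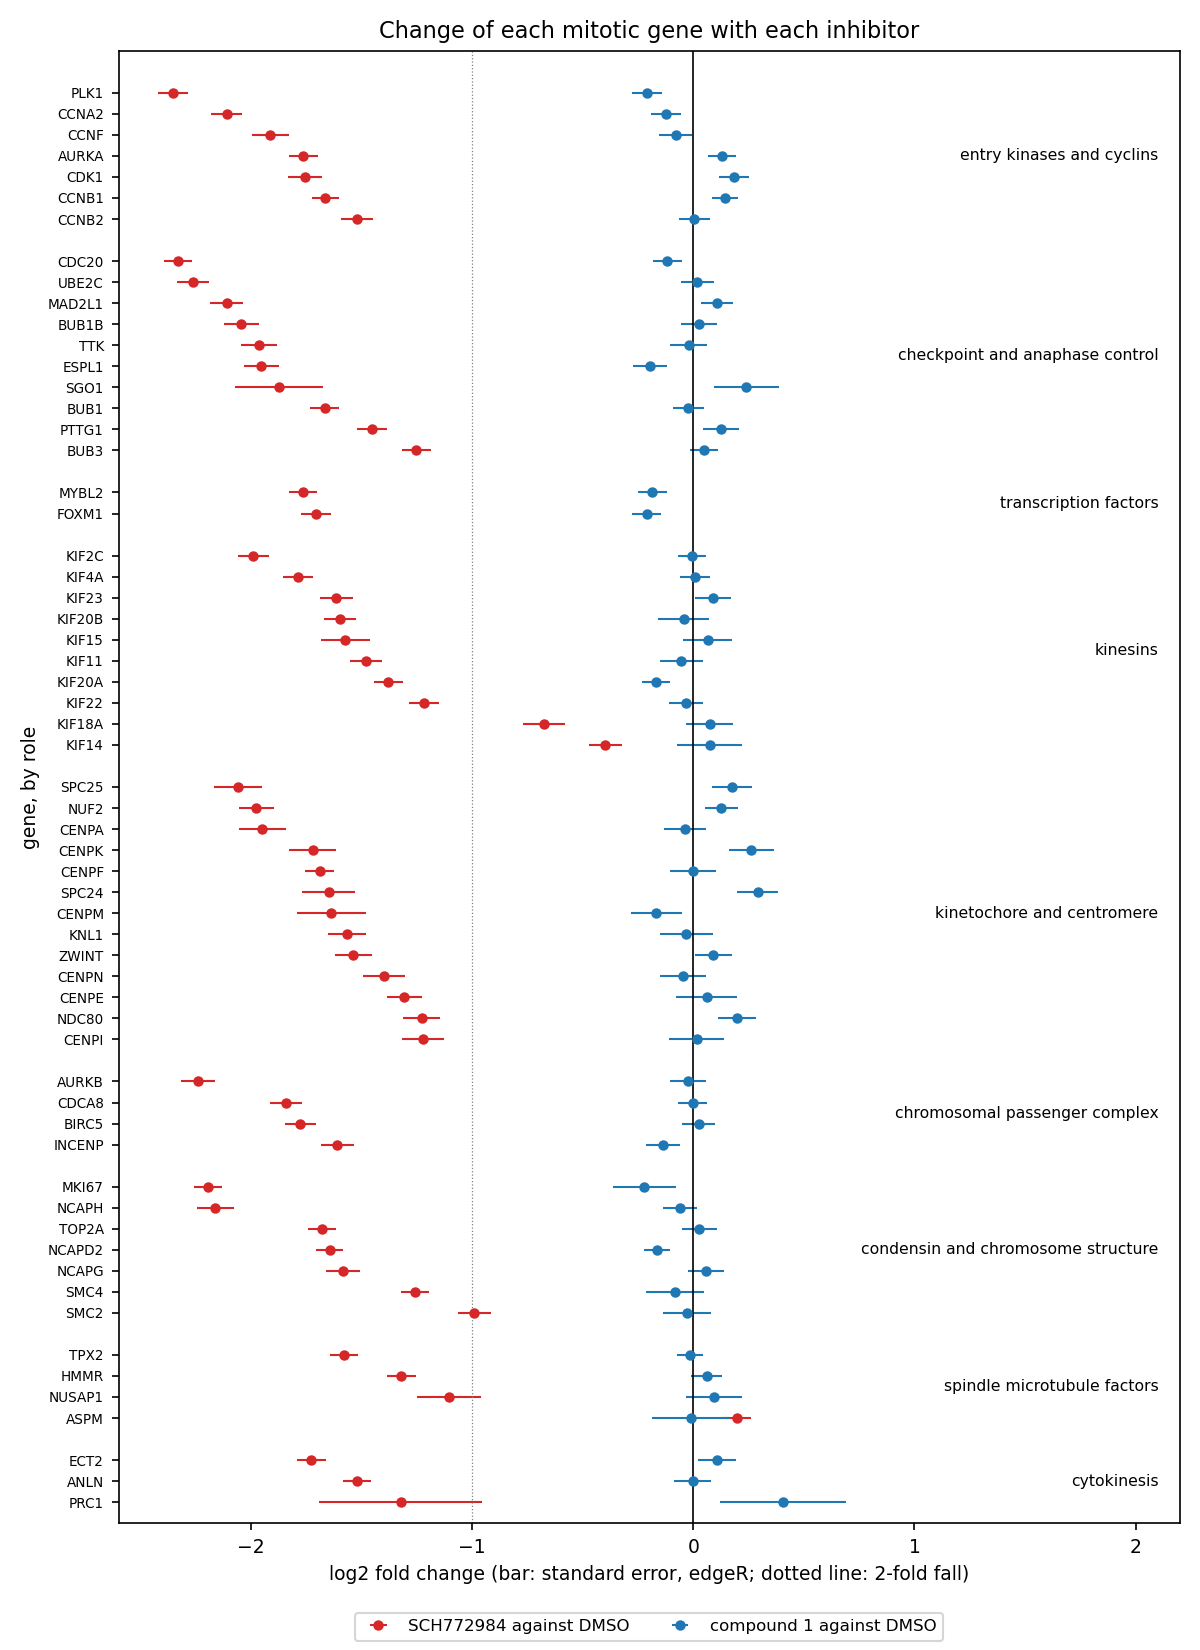
Log2 fold change (x axis) of each of the 60 genes (y axis, grouped by role and ordered by the change with SCH772984) for SCH772984 against DMSO in red and compound 1 against DMSO in blue; bars are edgeR's standard errors and the dotted line marks a 2-fold fall. The red points reach from −2.36 for PLK1 to 0.20 for ASPM, which turned to −0.21 when the length trend and the mean level of each library were taken out together, and the blue points stay between −0.22 and 0.41.

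The order of levels among these genes was partly kept. Per kilobase of gene length, CDC20 (362 CPM per kilobase) and CCNB1 (263) were the most abundant with DMSO, followed by TOP2A (181) and UBE2C (174), and the same first 3 genes led with SCH772984, with CCNB1 then ahead of CDC20. PRC1 and SGO1 were last in both. Across the 60 genes, the log2 fold change with SCH772984 had a Pearson r of −0.31 (Spearman rho −0.32) with the log2 level per kilobase in DMSO and of 0.36 (rho 0.30) with log2 gene length. These are descriptions across genes that share the same 6 libraries. Over all 13834 genes tested, the change with SCH772984 had an r of 0.01 with length.

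Compound 1 gave no called change among the 60 genes. With edgeR 0 were lower and 0 higher at an adjusted p under 0.05, where 0.374% of all 12849 genes tested were lower and 0.49% higher, and DESeq2 also called 0. At an unadjusted p under 0.05, 6 genes were lower (PLK1, ESPL1, FOXM1, MYBL2, KIF20A and NCAPD2) and 5 higher (CDK1, CCNB1, CENPK, NDC80 and SPC24), beside 7.69% and 7.35% of all genes. All 3 compound 1 libraries lay below all DMSO libraries for 8 genes and above them for 6, where 10.6% and 10.3% of all genes did so. For 60 genes, these counts are near the shares of all genes. The median log2 fold change was 0.00. The 95% interval of the log2 fold change lay within ±1 for 59 of 60 genes and within ±0.5 for 57, with the lowest bound at −0.54 for MKI67 and the highest at 1.01 for PRC1, so a 2-fold change was outside the interval of every gene but PRC1.

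The 3 lower genes with the smallest unadjusted p were FOXM1 (log2 fold change −0.21, SE 0.06, adjusted p = 0.13), PLK1 (−0.21, SE 0.07, adjusted p = 0.157) and MYBL2 (−0.19, SE 0.07, adjusted p = 0.187). PLK1 was at 262, 225 and 238 CPM with compound 1, below its 3 DMSO libraries at 279 to 280 CPM. The 3 higher genes were SPC24 (0.29, SE 0.09, adjusted p = 0.149), CDK1 (0.18, SE 0.07, adjusted p = 0.209) and CENPK (0.26, SE 0.10, adjusted p = 0.239). SPC24 was at 44.4, 39.2 and 43.4 CPM with compound 1 and at 34.7, 35.8 and 33.4 CPM with DMSO. CDK1 was at 163, 162 and 155 CPM with compound 1 and at 139, 141 and 143 CPM with DMSO. CENPK, a subunit of the constitutive centromere network, was at 49.7, 59.4 and 60.6 CPM and at 43.8, 46.0 and 52.1 CPM, so that its groups overlap, while those of SPC24 and CDK1 do not.

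Replicate 1 of compound 1 stood apart from the other libraries of its group. Over all genes, the chi-square per degree of freedom was 10.1 and 7.61 between compound 1 replicate 1 and replicates 2 and 3, and 2.66 between the latter. Among the 60 genes, the log2 ratio of replicate 1 to replicates 2 and 3 was lower the longer the gene (Pearson r −0.76, Spearman rho −0.74), and over all 12849 genes tested r was −0.27 (rho −0.35). Of the 20 longest genes (5499 to 12807 bases) 20 were lower in replicate 1, with a median log2 ratio of −0.34, of the next 20 by length 13 were lower (−0.08), and of the 20 shortest (1286 to 3600 bases) 7 were lower (0.10). ASPM, KIF14, CENPE, MKI67 and SMC4, chosen here after their values were seen, are among the long genes that were low in that library. Without compound 1 replicate 1, 5 genes were lower (PLK1, CDC20, FOXM1, MYBL2 and NCAPD2) and 6 higher (KIF14, CENPE, CENPK, NDC80, ASPM and ECT2), beside 6.1% and 3.46% of all genes, with log2 fold changes from −0.27 for PLK1 to 0.35 for CENPK. Taking the length trend out of every library, with all libraries kept, left 0 calls in either direction.

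**Figure D4:**
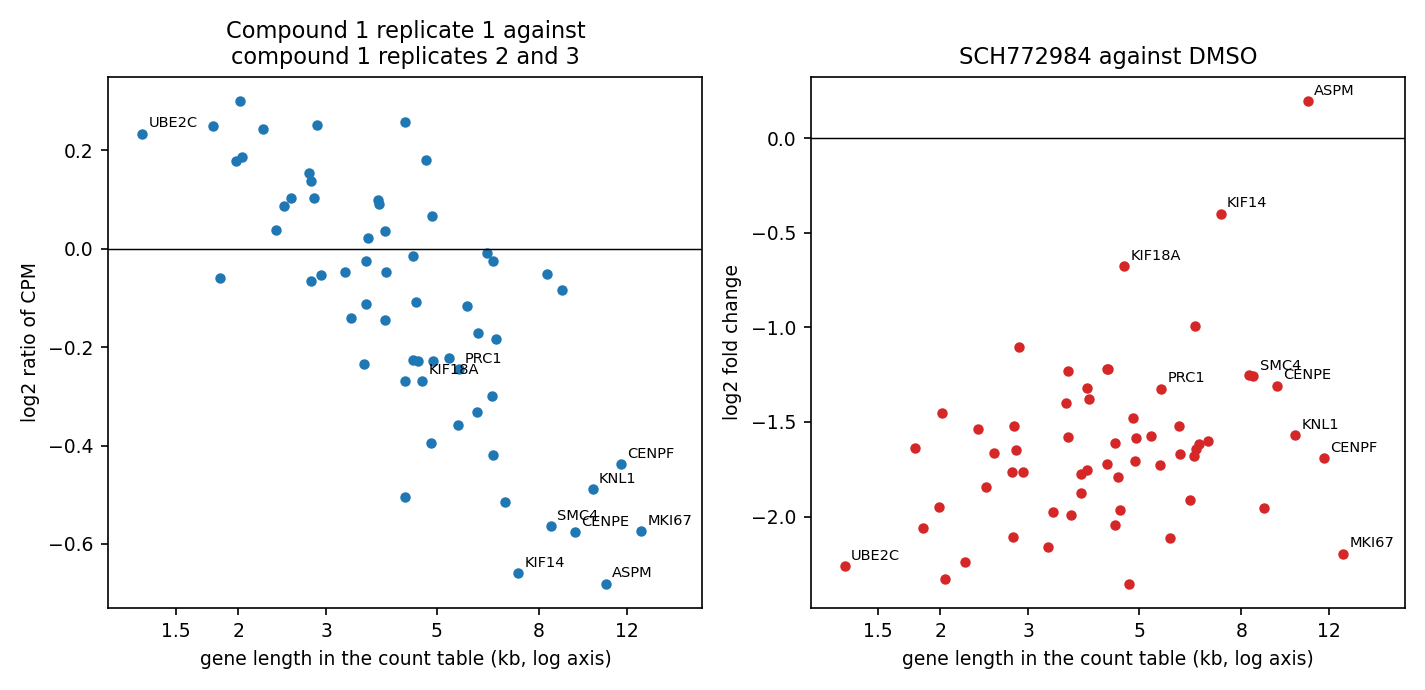
Gene length in the count table (x axis, kilobases, log scale) against the log2 ratio of CPM in compound 1 replicate 1 to the other compound 1 libraries (left) and against the log2 fold change with SCH772984 (right), 1 point for each of the 60 genes. The left points fall with length (r −0.76), and on the right ASPM, KIF14 and KIF18A stand above the rest.

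In the direct comparison of the inhibitors, 59 of 60 genes were lower with SCH772984 than with compound 1 and 0 were higher, where 32.6% of all 13863 genes tested were lower and 33.7% higher. By edgeR the remaining gene, ASPM, had a log2 difference of 0.22 (SE 0.16, adjusted p = 0.259). The median log2 difference was −1.66, and 58 genes were lower in every SCH772984 library than in any compound 1 library (34% of all genes were). The 2 genes with the largest differences were UBE2C (−2.27, SE 0.10), at 252, 207 and 221 CPM with compound 1 and 43.1, 52.1 and 45.5 CPM with SCH772984, and SPC25 (−2.23, SE 0.12), at 51.8, 50.9 and 57.1 CPM with compound 1. The smallest were those of ASPM and of KIF14 (−0.46, SE 0.15, adjusted p = 0.0122), whose groups overlap. KIF14 was not called without SCH772984 replicate 3 (−0.37, adjusted p = 0.0605) or with library size scaling (−0.33, adjusted p = 0.0802). Both comparisons with DMSO share the 3 DMSO libraries, which the direct comparison does not use.

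The same direction was seen in most other genes of cell division. Of 74 other mitosis genes, 64 were lower with SCH772984, 3 higher and 7 not called, beside 35.5% lower and 37.2% higher of all genes tested, with a median log2 fold change of −1.23. The lowest were CDCA5 (sororin, −2.38), HJURP, the chaperone of CENPA (−2.36), and FBXO5 (EMI1, an inhibitor of the anaphase-promoting complex, −2.21), and the 3 higher genes were CENPT of the inner kinetochore (0.41, SE 0.09) and the cohesin subunits STAG1 (0.27, SE 0.08) and STAG2 (0.22, SE 0.07). The 11 core subunits of the anaphase-promoting complex and the 5 cohesin subunits are 2 groups formed after the values were seen. In the first group 6 were lower and 5 not called, with a median of −0.20, and in the second 3 were lower and 2 higher, with a median of −0.63, beside the same 35.5% and 37.2% of all genes. All 32 DNA replication genes were lower (35.5% of all genes were), with a median of −1.78, from the initiation factor MCM10 (−2.68) and the helicase subunits MCM7 (−2.43) and CDC45 (−2.36) to POLA2 (−0.95), the polymerase subunit POLD1 (−0.90) and the clamp loader subunit RFC1 (−0.61).

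With compound 1, where 0.374% of all genes were lower and 0.49% higher, 0 of the 74 other mitosis genes were lower and 2 higher, CENPT (0.46, SE 0.09, adjusted p = 0.0365) and CKS2, a CDK1-binding protein (0.36, SE 0.08, adjusted p = 0.0383). CENPT was thus higher than with DMSO under both inhibitors, from 49.5 ± 5.5 CPM (SD, n = 3) to 68.1 ± 2.3 CPM with compound 1 and 65.8 ± 6.6 CPM with SCH772984, in comparisons that share the DMSO libraries. Of the 32 DNA replication genes 1 was lower, the helicase subunit MCM2 (−0.35, SE 0.07, adjusted p = 0.0299), and the median was −0.10, beside 0.00 for the 60 mitotic genes. At an unadjusted p under 0.05, 9 of the 32 were lower and 0 higher, beside the 7.69% and 7.35% of all genes. In 11 of the 32 all compound 1 libraries lay below all DMSO libraries and in 1 above them, beside 10.6% and 10.3% of all genes, and 26 of the 32 had a log2 fold change below 0. The DNA replication genes thus had more low values than the mitotic genes with compound 1, a difference that was not tested.

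**Figure D5:**
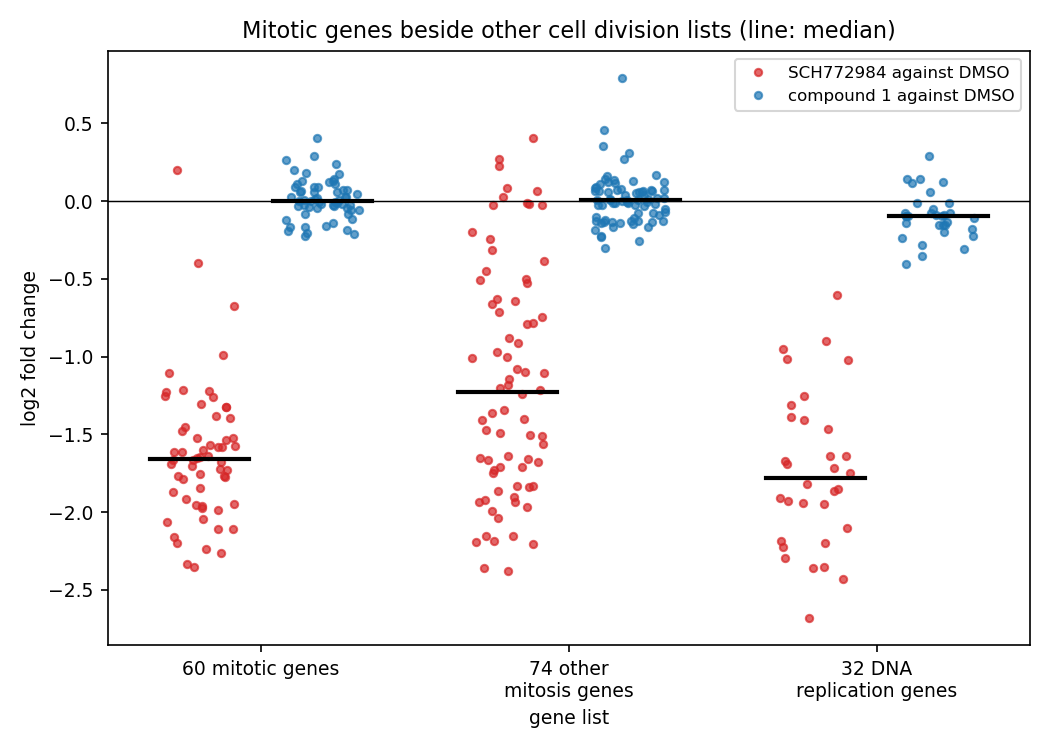
Log2 fold change (y axis) of the 60 mitotic genes, 74 other mitosis genes and 32 DNA replication genes (x axis) with SCH772984 in red and compound 1 in blue, 1 point per gene with the median as a black line. The red medians are −1.66, −1.23 and −1.78, and the blue medians are 0.00, 0.00 and −0.10.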

How the data were processed

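RNA from 9 libraries of MIA PaCa-2 cells was sequenced by Novogene. The authors deposited raw read counts per gene, in 1 table without normalization, and the processing notes name HISAT2 2.0.5, featureCounts 1.5.0-p3 and hg38. The strand setting was not given in the sources used here, so reads of overlapping genes, which 34 of the 60 genes have, cannot be assigned with certainty. The coordinates of all 60 genes equal those of GENCODE release 29. Named pseudogene copies of 13 genes had at most 0.13% of the gene's counts.

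Libraries were grouped by their labels and compared in 3 pairwise fits on the whole table with edgeR 4.0.16 (R 4.3.3; quasi-likelihood test, robust; TMM; filterByExpr, minimum count 10, minimum total 15). A call is a Benjamini-Hochberg adjusted p under 0.05 over all genes tested. The standard error is the absolute log2 fold change over the root of F. Levels are TMM-scaled CPM over all 9 libraries, divided by the gene length of the table for levels between genes. Genes, lists and tests were chosen with earlier results of these data known. Values per library are given, in each role, for the gene with the highest level per kilobase and those with the largest and smallest absolute change with SCH772984, for the 3 lower and 3 higher genes with the smallest p with compound 1, and for the 2 largest and 2 smallest differences between inhibitors. The 3 lowest and 3 highest genes of the other lists, and any gene called with compound 1, are also named. Genes named beyond this rule were chosen after their values were seen. Alternatives were other scalings, no filter, all 9 libraries in 1 fit, a replicate block, DESeq2 1.42.0, other thresholds, removal of the trend with gene length (a spline with 5 degrees of freedom) and leaving out each library. The code was tested on simulated data.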

Additional observations from a re-analysis of the deposited data

How the results depend on the processing

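With SCH772984 against DMSO, 59 genes were lower under every alternative except a 2-fold minimum, which left 56, and the added one below, which gave 60, while the 1 higher gene, ASPM, became 0 in the fit of all 9 libraries, with a 2-fold minimum, with the length trend removed and without DMSO replicate 1 (range over left-out libraries 0 to 1). The median log2 fold change was −1.48 with library size scaling, which raised the median of all genes by 0.17, by 0.03 with compound 1 and by 0.14 in the direct comparison. Against compound 1 it was −1.52 with that scaling and −1.74 to −1.63 over left-out libraries, and 0 to 1 genes were higher (1 without compound 1 replicate 2, ASPM at 0.39). With compound 1 against DMSO, the unadjusted threshold gave 6 lower and 5 higher genes, and leaving out a library gave 0 to 5 lower and 0 to 6 higher, the largest counts without compound 1 replicate 1, and put ASPM between −0.20 and 0.18 (0.18 without that replicate, −0.01 with all libraries). Removing each library's mean level over all genes with its length trend, an alternative chosen after seeing the data, as was centring the trend in the other length fit, moved the median of all genes by −0.33 with SCH772984. It gave medians of −1.99 against DMSO and −1.95 against compound 1, 0 higher genes, ASPM at −0.21, and 3 lower genes with compound 1. Those 3 genes were PLK1, FOXM1 and MYBL2. With the replicate number as a block, 59 genes were lower and 1 higher with SCH772984 and no call changed. Deviations of same-numbered libraries correlated at −0.08 to 0.11, with 1 of 9 pairs over 0.1. These values cannot show whether same-numbered libraries were prepared together, and the labels give only the number. Having 3 libraries per condition and the spread of compound 1 replicate 1 limit what changes with compound 1 could be seen, and genes of few counts, such as PRC1, have wide intervals.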
